A study of Brassica rapa subsp. pekinensis with 2 samples.

Results

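The 22-nt miRNA candidates of the Chinese cabbage table that carry no miRBase name there were described here. They were chosen as the entries whose name begins with PC, the prefix the table gives to predicted candidates, and whose mature sequence is 22 nt long. This gave 55 miRNAs among the 1220 miRNA names of the table and among its 595 PC-named miRNAs. Each of the 55 had 1 record, 1 precursor position and a sequence of its own, and the table marks each as new and as found by folding the genome around mapped reads. The reads, the first base and the hairpin values were not used in this choice. The prediction behind the PC prefix did rest on mapped reads and on folding, so reads and hairpin values are not independent of it.

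The table compares 2 small RNA libraries, ‘Ant’ and ‘Mix’, each made once, so no value has a replicate error. ‘Ant’ is the anthers of flower buds of mixed sizes, pooled over developmental stages, and ‘Mix’ is the root, stem and leaf of entire plants that carried 4 true leaves. Both came from a double haploid line, ‘FT’, derived from microspore culture. The study's methods give vernalization of the seed (4 °C, 20 days) for ‘Ant’, whereas the labels give it for each of the 2 samples. The number of plants in each library is not given in the sources used here. Tissue, age and the library itself therefore cannot be told apart in any difference between ‘Ant’ and ‘Mix’. By the study's methods, the same holds for vernalization. Fewer cells of a type also cannot be told apart from less RNA per cell.

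Most plant miRNAs are cut from hairpin precursors by Dicer-like 1 as 21-nt strands. A 22-nt strand usually comes from a hairpin in which one arm carries an unpaired base that the other arm lacks, so that the strands of the duplex differ in length. Strands of 22 nt are known in Arabidopsis for their ability, once loaded into ARGONAUTE1, to have the RNA they cut copied into secondary small RNAs. ARGONAUTE1 favours strands that begin with U (T in the sequences below), whereas the 24-nt small RNAs of silent chromatin mostly begin with A.

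Counts are deposited reads, which hold fractions for 23 of the 55. Ratios of ‘Ant’ to ‘Mix’ are log2 ratios of reads scaled by the authors' 2 library factors, with 95% exact binomial intervals that cover counting error only. A miRNA was called when its log2 ratio was beyond 1 in either direction and p was at most 0.05 in Fisher's exact test (two-sided) as well as in Pearson's chi-square test. These tests compare 2 libraries, not the conditions. A count of 0 allows up to 3 reads, and ratios against it are given with this floor in its place. A ratio at the floor leaves out the counting error of the other library, so its interval can begin lower.

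The candidates that carry the comparison are printed first, each 5′ to 3′ with bases 2 to 8, the seed, in capitals. The first set holds the 6 with the most reads, being the top 5 of either library.
PC-5p-7322_218: tCTGCTATcaacttgtagagtc
PC-3p-12682_140: tTTTTGTTcattactccatttc
PC-5p-22361_84: cAACTTCGagaagaacaaaact
PC-5p-19857_93: cCTCGAACccaggacctcaccc
PC-3p-59152_32: tTTTGTTCattactccatttcc
PC-3p-69931_27: tCATCACTccatttcccactcc

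The next set holds the remaining candidates called higher in ‘Ant’, beginning with the 5 listed at 0 in ‘Mix’.
PC-5p-172518_11: tGTTTTCTaaatttgagttatg
PC-3p-136074_14: tGGCATTGgtagtaatgagtgt
PC-5p-374397_5: aACACTACtcttctgtgacata
PC-5p-70064_27: aGAAGAAAagaagatattagat
PC-3p-318264_6: cATGTAAGtcgtaggacggatg
PC-5p-90128_20: tTCCATCGgtttgaggtccatc
PC-3p-152680_12: cATTGGAGcaaaacttactcta
PC-5p-119169_15: aAAACAAGtgttcctcggaatt
PC-5p-786923_3: aTAAACCCtaaactctaggatt
PC-5p-89860_21: tCTGACAGaaagagcagtgagc
PC-5p-178430_10: tAAATTCTaaatcaaaaacact
PC-5p-1111070_3: aGTGTATAtatgaaaagtgata
PC-5p-643416_4: tGGAAAATagaatataaacaaa
PC-3p-835525_3: cAACATTActctatatttcaca
PC-5p-246181_8: aTAAACCCtgaacccttggatt

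The remaining candidates called lower in ‘Ant’ are the following.
PC-5p-280829_7: cATGGAGAgacaagtatatatt
PC-3p-182217_10: tGGAAGTCgtccaagtagtctt
PC-3p-138330_13: tAGTAGAAgacttcctggaagt
PC-3p-609067_4: tTTTTGTTcatcacttcatttt
PC-3p-266464_7: tCGAAAGCcaaagctcaaatct
PC-3p-616795_4: aGTGGAAGcagcaacgagaagc

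The 55 candidates were weakly read. Together they had 948 reads in ‘Ant’ and 658.5 in ‘Mix’, which was 0.0704% (95% Wilson interval 0.0661 to 0.0750) of the 1346716 reads on distinct listed sequences in ‘Ant’ and 0.0472% (0.0437 to 0.0510) of the 1393755 in ‘Mix’. The share in ‘Ant’ was 1.49 times that in ‘Mix’ (counting interval 1.35 to 1.65), and the log2 ratio of the shares was 0.30 without the most read candidate against 0.58 with it. By comparison, the 86 distinct known sequences of 22 nt took 17.3% of the reads in ‘Ant’ and 11.3% in ‘Mix’. Among PC-named sequences only, the 22-nt candidates held 4.92% (4.62 to 5.24) of the reads in ‘Ant’ and 3.65% (3.38 to 3.93) in ‘Mix’.

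Reads were concentrated on few candidates. The 5 most read held 51.1% of the candidates' reads in ‘Ant’ and 55.1% in ‘Mix’. The median candidate had 8 reads in ‘Ant’ and 4 in ‘Mix’, 23 had fewer than 10 reads in both libraries, and only 2 reached 100 in either. The 21-nt PC-named miRNAs had medians of 12 and 5 reads, and the known 22-nt miRNAs 37 and 15.

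Of the 55 candidates, 25 were called, 17 higher and 8 lower in ‘Ant’. Over all 1220 names the called share was 48.0%, with 27.1% higher and 20.9% lower, and the 22-nt candidates stood at 45.5%, 30.9% and 14.5%. The called share was thus close to the background. With the floor applied to low counts, the median log2 ratio of the 55 was 0.41, against −0.05 over all names and 0.75 over the 21-nt PC-named miRNAs. Reads scaled by library were higher in ‘Ant’ for 39 candidates and higher in ‘Mix’ for 16. The same counts were 682 and 538 over all 1220 names. Over the 595 PC-named miRNAs they were 403 and 192, so this lean was shared by predicted miRNAs of other lengths. Where a biological coefficient of variation of 0.4 was assumed in edgeR's exact test, 15 of the 55 were called, 10 higher and 5 lower, beside 31.0% of all names. The 10 that lost their call there were PC-3p-12682_140, PC-3p-152680_12, PC-3p-835525_3, PC-5p-1111070_3, PC-5p-246181_8, PC-5p-643416_4 and PC-5p-786923_3 among those higher, and PC-5p-19857_93, PC-3p-182217_10 and PC-3p-616795_4 among those lower. At a variation of 0.2 it called 20 of the 55, beside 44.2% of all names.

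**Figure D1:**
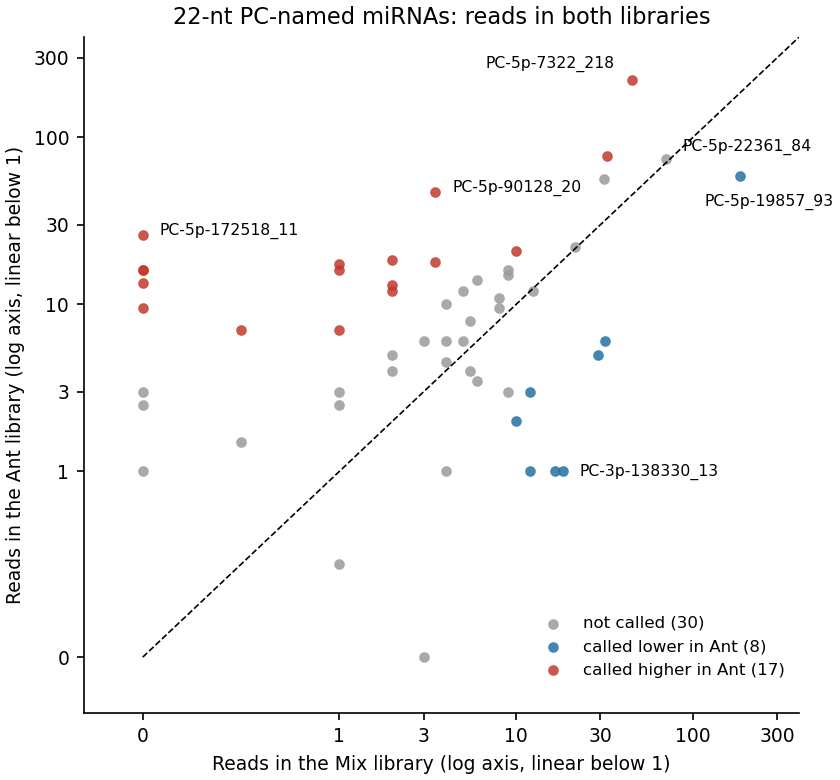
Each point is a 22-nt PC-named miRNA, placed by its reads in ‘Mix’ (x axis) and in ‘Ant’ (y axis), both on log axes that are linear below 1. The dashed line marks equal reads. The 17 candidates called higher in ‘Ant’ lie above it and the 8 called lower lie below it, and 5 of the called candidates sit at 0 reads in ‘Mix’.

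PC-5p-7322_218 was the most read candidate of ‘Ant’. It lies on the minus strand of A09, in a precursor at 18826999 to 18827154, and had 45 reads in ‘Mix’ and 219 in ‘Ant’. It was higher in ‘Ant’, with a log2 ratio of 2.24 (1.77 to 2.73; p = 1.81e-28, Fisher's exact test), and by itself supplied 23.1% of the candidates' reads there. PC-3p-12682_140 (A04, 10989454 to 10989645) had 32.5 reads in ‘Mix’ and 77 in ‘Ant’, a log2 ratio of 1.20 (0.57 to 1.81), and was also called higher. At an assumed variation of 0.4 only the former of these was called.

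PC-5p-90128_20 (A02, 27068401 to 27068618) rose from 3.5 reads in ‘Mix’ to 47 in ‘Ant’, a log2 ratio of 3.70 (2.06 to 5.44; p = 1.74e-10, Fisher's exact test). Besides PC-5p-172518_11, it was the only candidate whose interval lay wholly above 2. The other most read candidates behaved differently from each other. PC-5p-22361_84 (A10, 15668952 to 15669138) had 70 reads in ‘Mix’ and 74 in ‘Ant’, a log2 ratio of 0.03 (−0.46 to 0.53). PC-3p-59152_32 (A03, 24897876 to 24898102) had 31.5 and 56, a log2 ratio of 0.78 (0.11 to 1.44) that stayed below the threshold for a call although its interval excluded 0.

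Of the candidates called higher, 5 were listed at 0 in ‘Mix’. PC-5p-172518_11 (A03, minus strand, 8309819 to 8310045) had 26 reads in ‘Ant’ and so stood 8.40-fold higher at the floor. That is a log2 ratio of 3.07, while its interval began at 2.67. PC-3p-136074_14 (A10) and PC-5p-374397_5 (A02) had 16 reads each, 5.17-fold higher at the floor, with log2 intervals from 1.90. PC-5p-70064_27 (A05) had 13.5 and PC-3p-318264_6 (A07) had 9.5, 4.36-fold and 3.07-fold higher at the floor. Their log2 intervals began at 1.68 and 1.12. At this depth these 5 were detected in ‘Ant’ alone. The 3 further candidates listed at 0 in ‘Mix’ (PC-5p-2479987_2, PC-5p-9485865_1 and PC-3p-9277167_1) had 1 to 3 reads in ‘Ant’ and were not called.

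The other 9 candidates called higher had 0.5 to 10 reads in ‘Mix’ and 7 to 21 in ‘Ant’. Among them were PC-5p-89860_21, with 1 read in ‘Mix’ and 17.5 in ‘Ant’ (log2 ratio 4.08, 1.46 to 9.50), and PC-5p-178430_10, with 1 and 16 (3.95, 1.27 to 9.34). PC-5p-119169_15 had 2 reads in ‘Mix’ and 18.5 in ‘Ant’ (3.17, 1.15 to 6.35). With counts under 3 reads set to the floor, the log2 ratios of PC-5p-89860_21, PC-5p-178430_10 and PC-5p-119169_15 were 2.50, 2.37 and 2.58, so that they have no fixed order. For 3 of the 9, PC-3p-152680_12 (10 and 21 reads), PC-3p-835525_3 (1 and 7) and PC-5p-246181_8 (0.5 and 7), the counting interval of the ratio included no difference, so that equal levels lay within counting error. PC-5p-786923_3, PC-5p-1111070_3 and PC-5p-643416_4 had intervals that began between 0.37 and 0.52.

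Among the 8 candidates called lower in ‘Ant’, PC-5p-19857_93 (A08, 9294156 to 9294416) had the most reads in ‘Mix’ of all 55. It had 183.5 reads in ‘Mix’, 27.9% of the candidates' reads there, and 58.5 in ‘Ant’, a log2 ratio of −1.70 (−2.14 to −1.26; p = 2.55e-16, Fisher's exact test). It was detected in both libraries, and at an assumed variation of 0.4 it was not called. PC-3p-69931_27 (A03) fell from 32 reads to 6 (−2.46, −4.01 to −1.18), and PC-5p-280829_7 (A08) from 29 to 5 (−2.58, −4.31 to −1.20). PC-3p-138330_13, PC-3p-609067_4 and PC-3p-266464_7 were each at 1 read in ‘Ant’, from 18.5, 16.5 and 12 in ‘Mix’. The last 2 were PC-3p-182217_10, with 12 reads in ‘Mix’ and 3 in ‘Ant’, and PC-3p-616795_4, with 10 and 2. No candidate called lower was listed at 0 in ‘Ant’. PC-3p-1721962_2 was the only one of the 55 listed at 0 there, with 3 reads in ‘Mix’. The 30 candidates that were not called had 0 to 70 reads in ‘Mix’ (median 4.5) and 0 to 74 in ‘Ant’ (median 5.5), and 16 of them had at most 10 reads in the 2 libraries together.

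**Figure D2:**
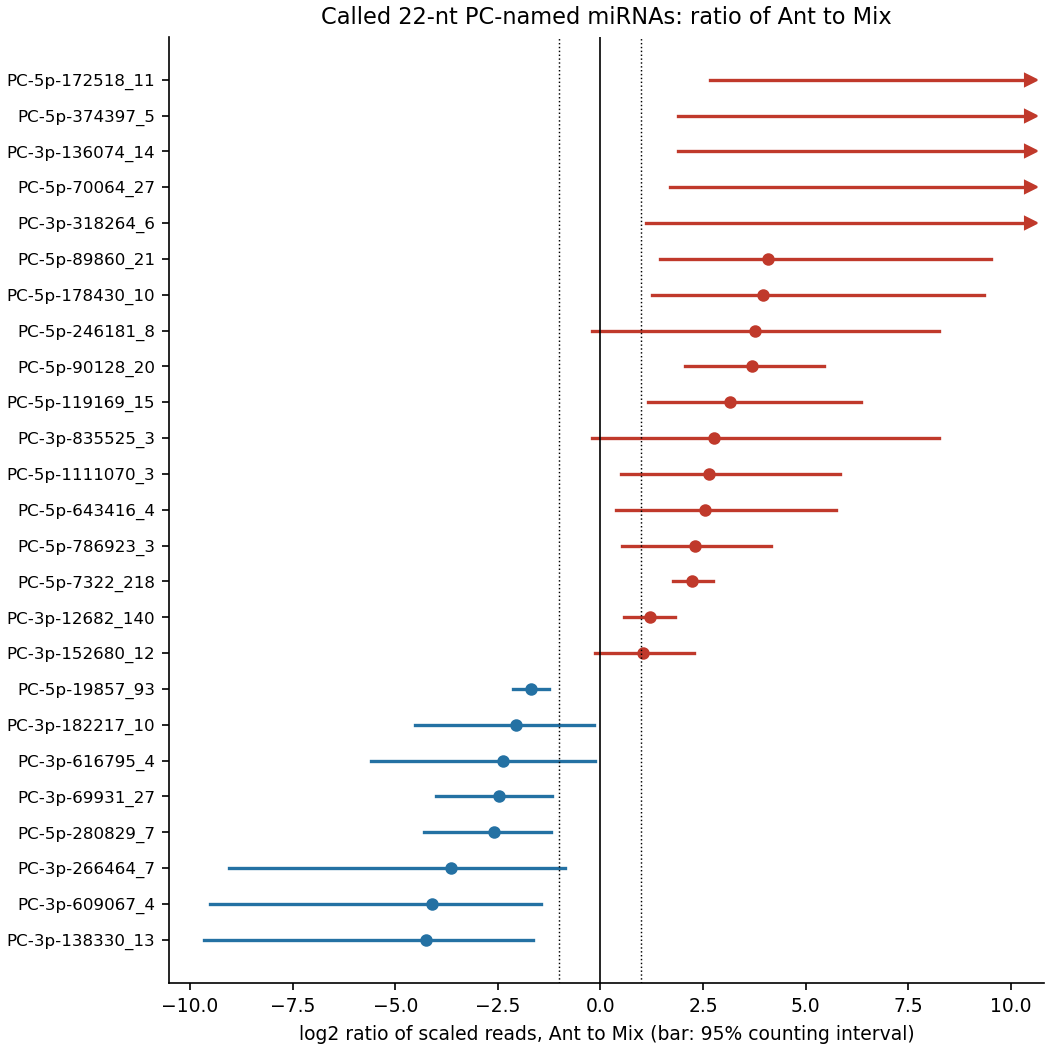
The log2 ratio of scaled reads, ‘Ant’ to ‘Mix’ (x axis), of the 25 called candidates, with 95% counting intervals as bars. Red marks those higher and blue those lower in ‘Ant’, arrows mark the 5 listed at 0 in ‘Mix’, whose ratio has no upper end, and the dotted lines mark the threshold of 1; the narrowest bars belong to PC-5p-7322_218 and PC-5p-19857_93, and 3 bars cross 0.

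Calls in either direction came from both arms. Of the 17 candidates called higher, 12 came from the 5′ arm and 5 from the 3′ arm, and of the 8 called lower 2 came from the 5′ arm and 6 from the 3′ arm. These are counts without a test. Over all 55, the 5′ arm gave 26 and the 3′ arm 29, so that 47.3% (34.7 to 60.2) were 5′ strands, close to the 50.0% of the 21-nt PC-named miRNAs. Weighted by reads, the 5′ arm held 68.4% in ‘Ant’ and 61.0% in ‘Mix’. The 3 most read 5′ strands were PC-5p-7322_218, PC-5p-19857_93 and PC-5p-22361_84.

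T was the commonest first base. It opened 27 of the 55 sequences, 49.1% (36.4 to 61.9), A opened 18, C 8 and G 2. The share of T was 43.8% (37.9 to 49.9) among the 260 PC-named sequences of 21 nt, 53.7% (43.7 to 63.4) among the 95 known names of 22 nt, 17.3% (9.38 to 29.7) among the 52 PC-named of 23 nt and 9.95% (6.60 to 14.7) among the 211 of 24 nt. The interval of the 22-nt candidates thus overlapped those of the 21-nt and of the known 22-nt miRNAs and lay above those of the 23-nt and 24-nt candidates, of which the latter began with A in 71.1% of cases. T opened 8 of the 17 candidates called higher and 5 of the 8 called lower.

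**Figure D3:**
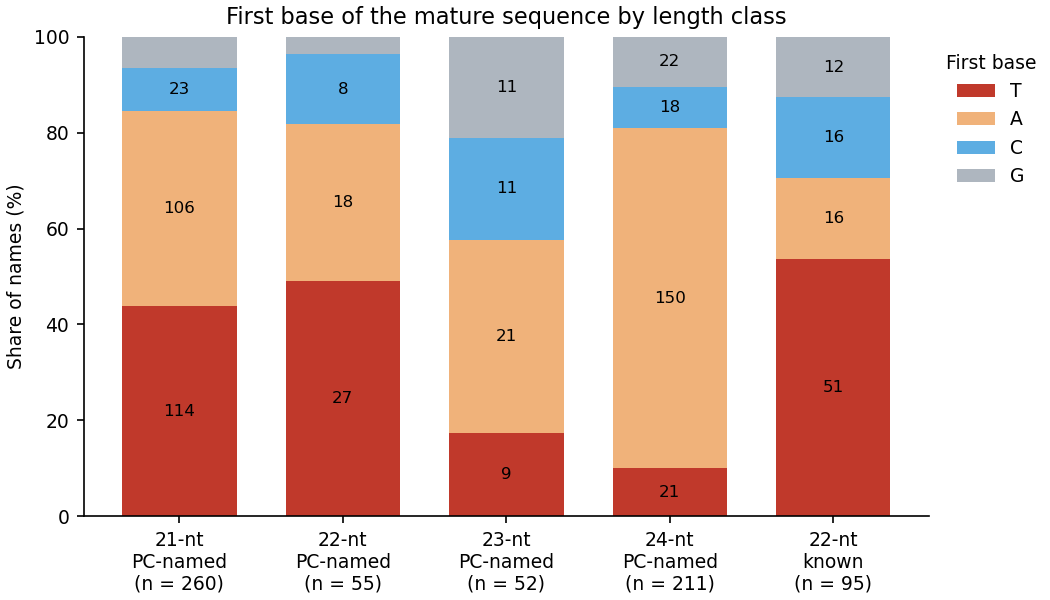
Share of names (y axis, in percent) whose mature sequence begins with T, A, C or G, for PC-named miRNAs of 21 to 24 nt and for the known 22-nt miRNAs; numbers in the bars are names. The 22-nt candidates resemble the 21-nt class in their share of T (27 of 55 and 114 of 260), whereas A leads in the 24-nt class (150 of 211).

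The hairpins of the 55 had a median length of 150 nt (93 to 209), a median GC content of 31.8% (13.4 to 55.9), a median folding energy of −76.1 kcal/mol and a median folding energy index of 1.5, a score that sets the energy against length and GC content. The medians of the 21-nt PC-named miRNAs were 147 nt, 30.7%, −78.2 kcal/mol and 1.5, nearly the same, while those of the known 22-nt miRNAs were 132 nt, 41.0%, −54.9 kcal/mol and 1.0. The hairpins of the 22-nt candidates thus lay close to those of the other predicted miRNAs in each of these medians. By median, those of the known ones were shorter, richer in GC and less strongly folded per base. The known class ran from 1 to 595 nt and up to 1.7 kcal/mol, so some of its entries were not full hairpins. Its index ran from 0 to 2.1, whereas no PC-named miRNA had an index under 0.9. The candidates were predicted by folding, so their stronger folding cannot be read as a result about them. The lowest folding energy was that of PC-3p-138330_13, at −195.8 kcal/mol, and the highest that of PC-5p-280829_7, at −38.5 kcal/mol. By the index the order differed, with PC-3p-1964299_2 highest at 2.8 and PC-3p-138330_13 at 2.1. The mature sequence equalled its stretch of the precursor in 37 cases and differed from it at 1 base in 18. Chromosome A09 held 15 of the 55 candidates, 27.3%, among them both strands of 1 precursor, and 114 of the 595 PC-named miRNAs, 19.2%, and every other chromosome held 3 to 6 of the 55.

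Since the usual route to a 22-nt strand is a hairpin with arms of unequal length, the structures in the table were read for the opposite strand that 2-base 3′ overhangs at both ends would leave. That strand was 22 nt, as long as the candidate, for 45 of the 55, shorter for 7 and longer for 3. With structures from RNAfold the counts were 47, 5 and 3. By the deposited structures a shorter opposite strand was found for 12.7% of the 22-nt candidates, beside 2.69% of the 21-nt, 7.69% of the 23-nt and 6.16% of the 24-nt PC-named miRNAs. With RNAfold the share of the 22-nt candidates was 9.09% and that of the 23-nt ones again 7.69%, and these differences were not tested. The 7 were PC-5p-7322_218, PC-5p-89860_21, PC-5p-144552_13, PC-3p-266464_7, PC-3p-644824_4, PC-5p-4260814_1 and PC-5p-9485865_1, of which the first, the second and PC-3p-266464_7 were called.

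The table lists a strand from the opposite arm for 42 of the 55. Its length was 21 nt for 19, 24 nt for 14, 22 nt for 4, 20 nt or 23 nt for 2 each and 19 nt for 1. The ends of both strands left 2-base 3′ overhangs on each side, the mark of a Dicer cut, in 5 of the 42, beside 48 of 202 among the 21-nt PC-named miRNAs and 12 of 176 among those of 24 nt. The 5 were PC-5p-7322_218 and PC-5p-144552_13, each with a 21-nt partner, PC-5p-89860_21, with a 20-nt partner, and the pair of PC-5p-243272_8 and PC-3p-500647_4. The precursor of PC-5p-7322_218 is shown because it unites the most reads, unequal arms and such overhangs, with the listed strands in capitals and the candidate first.
PC-5p-7322_218 precursor: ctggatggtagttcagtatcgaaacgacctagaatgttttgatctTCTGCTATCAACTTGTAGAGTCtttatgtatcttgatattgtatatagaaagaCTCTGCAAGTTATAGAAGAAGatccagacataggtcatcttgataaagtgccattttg

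No read of its 3′ strand, PC-3p-20672_90, was listed in ‘Mix’. In ‘Ant’ that strand had 100 reads, which puts it 32.3-fold higher at the floor, with a log2 interval from 4.69. The 22-nt strand held 68.7% (63.4 to 73.5) of the reads of both arms in ‘Ant’ and all 45 in ‘Mix’ (at least 92.1% by its Wilson interval). The arms therefore differed in their ratio between the libraries, although both were called higher in ‘Ant’.

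In 2 precursors both strands were 22-nt candidates, and their sequences are shown as pairs.
PC-5p-243272_8: tCTTTAGCtggtctctctccct
PC-3p-500647_4: aGAGAGGGatcagtaaaagatg
PC-5p-730334_3: aACCAAATcgcgtttacagact
PC-3p-1458978_2: tGTAAACGcgatttggttaata

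PC-5p-243272_8 had 9 reads in ‘Mix’ and 15 in ‘Ant’, and its partner PC-3p-500647_4 had 4 and 6, from a precursor on A09. PC-5p-730334_3 had 9 and 16, and its partner PC-3p-1458978_2 had 6 and 14, from a precursor on A08 whose strands left 4-base overhangs. None of the 4 was called, and the 5′ strand had more reads than the 3′ strand in both libraries in both precursors.

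Opposite arms were listed for 16 of the 25 called candidates. The arm was called in the same direction for 6, was not called for 10 and was called in the opposite direction for none. Over all names, 27.1% were called higher and 20.9% lower. The 10 arms without a call had at most 9 reads in either library, so depth limits what these counts show. The 6 included PC-5p-90128_20, whose 21-nt partner PC-3p-59836_31 had 2 reads in ‘Mix’ and 28.5 in ‘Ant’. They also included PC-5p-374397_5, whose 24-nt partner PC-3p-323943_6 had 1.5 and 29.5, and PC-3p-138330_13, whose 21-nt partner PC-5p-5898_261 had 134 and 7. In the last of these the partner outnumbered the candidate in both libraries, the candidate holding 12.1% of the reads of both arms in ‘Mix’. Over the 42 candidates with a listed opposite arm, the candidate had more reads than its partner in 22 in ‘Ant’ and in 20 in ‘Mix’, fewer in 18 and 16, and the arm in the lead differed between the libraries in 5. The 2 precursors whose strands are both candidates enter these counts once in each direction. The 5 changes of lead rest on few reads and were not tested. PC-3p-952687_3 had 5.5 reads against 6 of its partner in ‘Mix’, and 4 against 3 in ‘Ant’. PC-5p-1563717_2 differed more, with 9 against 6 in ‘Mix’ and 3 against 21.5 in ‘Ant’.

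**Figure D4:**
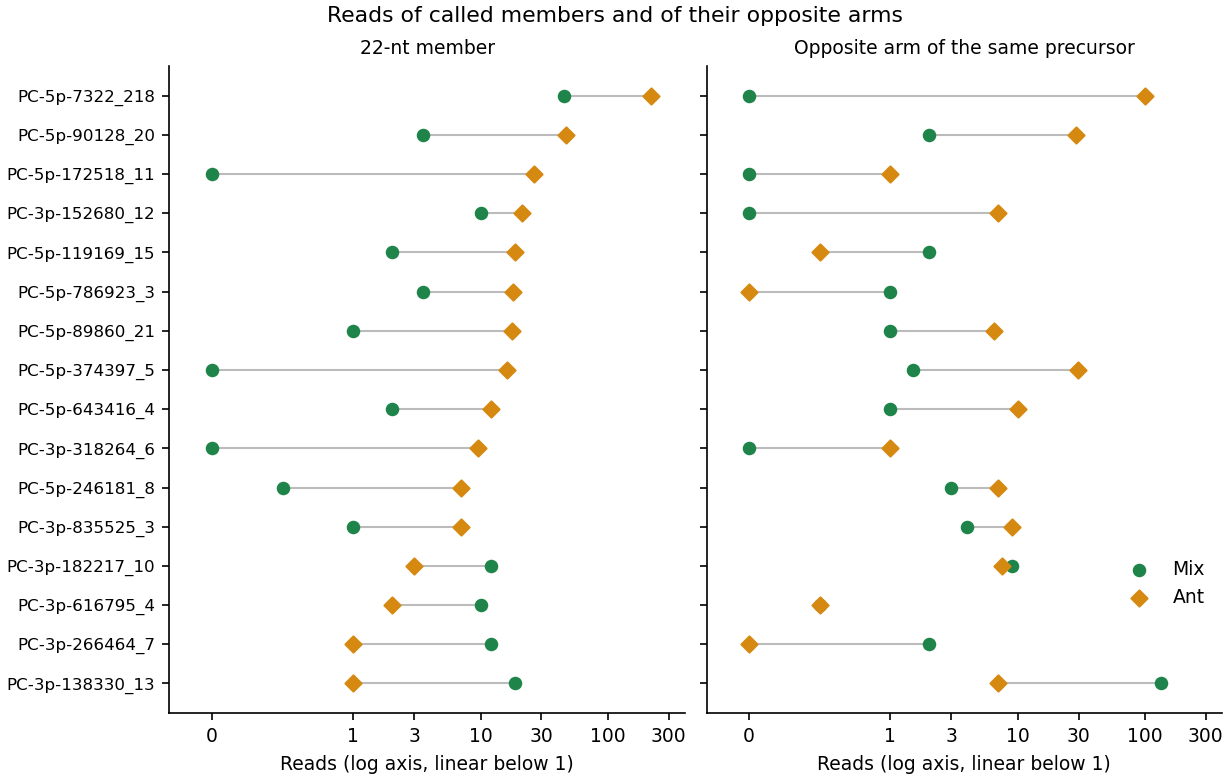
Reads in ‘Mix’ (circles) and ‘Ant’ (diamonds) of the 16 called candidates with a listed opposite arm (left) and of that arm (right), on log axes that are linear below 1; a line joins the libraries of a strand. PC-5p-7322_218, PC-5p-90128_20 and PC-5p-374397_5 and their partners all stood higher in ‘Ant’, and PC-3p-138330_13 and its partner stood lower.

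Of the 55, 4 were the 22-nt form of a shorter listed sequence with the same 5′ end. PC-5p-90128_20 extends the 21-nt PC-5p-34355_55 by 1 base. The shorter form had 3 reads in ‘Mix’ and 55 in ‘Ant’, and the 22-nt form held 46.1% (36.7 to 55.7) of the reads of both in ‘Ant’. PC-5p-19857_93 likewise extends PC-5p-22903_82, which had 111 reads in ‘Mix’ and 56 in ‘Ant’. The 22-nt form held 62.3% (56.9 to 67.9) in ‘Mix’ and 51.1% (41.8 to 59.9) in ‘Ant’. PC-3p-59152_32 extends PC-3p-1165_1017, which had 158 and 401.5, and here the 22-nt form held 16.6% (12.2 to 22.8) in ‘Mix’ and 12.2% (9.54 to 15.5) in ‘Ant’. In each of these 3 the forms leaned to the same library. PC-3p-182217_10 extends a 20-nt sequence that had 2 reads in each library.

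Sequence relations were looked for without gaps, over at least 18 bases and with at most 3 mismatches. On the same strand, 26 of the 55 had such a relative among the other names, 9 had one among the candidates themselves and 8 had one among known miRNAs. A seed was shared with a known name by 4 candidates. PC-3p-616795_4 shared it with mdm-miR482d_1ss2AG. PC-3p-59152_32, PC-3p-243912_8 and PC-3p-2000051_2 shared theirs with forms of bol-miR9409. Of the 55 seeds 51 were distinct, and 4 were shared by a pair of candidates each. The members of these pairs not printed so far are the following.
PC-3p-952687_3: cAACATTAttctatatttcact
PC-3p-2000051_2: tTTGTTCAttactccatttttc
PC-3p-243912_8: tTTGTTCAttactccatttctc

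The largest group of relatives was formed by PC-3p-12682_140, PC-3p-59152_32, PC-3p-243912_8, PC-3p-2000051_2 and PC-3p-609067_4, which share the core ttgttcat and come from precursors on A04, A03, A09, A06 and A01. Forms of bol-miR9409, a miRNA named from Brassica oleracea, matched all 5 within 3 mismatches. The group did not move as one. PC-3p-12682_140 and PC-3p-609067_4 share the seed TTTTGTT, yet the former was called higher (32.5 to 77 reads) and the latter lower (16.5 to 1). PC-3p-609067_4 equals 21 of the 22 bases of bol-MIR9409-p3_2ss13GC17GT_2, itself at 11.5 reads in ‘Mix’ and 0 in ‘Ant’. PC-3p-243912_8 (8 reads in ‘Mix’, 9.5 in ‘Ant’) and PC-3p-2000051_2 (6 and 3.5), which share TTGTTCA, were not called. The 21-nt relatives outside the candidates also went both ways, with PC-3p-1165_1017 higher in ‘Ant’ and PC-3p-2236_580 at 2229 reads in ‘Mix’ and 17 in ‘Ant’. Further candidates touch the same core without meeting the rule for this group. In the precursor of PC-3p-69931_27 (32 reads in ‘Mix’, 6 in ‘Ant’) the core runs across the candidate's 5′ end. PC-5p-392969_5 matched PC-3p-12682_140 as its complement, with 2 mismatches over 19 bases, and its listed opposite arm begins with the core.

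The remaining seed pairs were PC-5p-786923_3 with PC-5p-246181_8, both called higher and alike at all but 3 of their 22 bases, and PC-3p-835525_3, called higher (1 to 7 reads), with PC-3p-952687_3, not called (5.5 to 4). PC-5p-575028_4 and PC-5p-1563717_2 matched forms of bra-miR9563a, and neither was called, with 5 and 9 reads in ‘Mix’ and 12 and 3 in ‘Ant’. PC-5p-392969_5, with 12.5 and 12 reads, matched a form of bna-MIR6035.

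PC-5p-89860_21 lies opposite a conserved miRNA. Its precursor on the minus strand of A09, at 38717175 to 38717324, shares 115 bases with a plus-strand precursor of miR156, at 38717113 to 38717289. miR156 is the miRNA that holds back SPL transcription factors and so sets the juvenile phase in plants. The candidate is the exact reverse complement of the 22-nt bra-miR156f-3p_L-1 listed from that precursor.
PC-5p-89860_21: tCTGACAGaaagagcagtgagc
bra-miR156f-3p_L-1: gCTCACTGctctttctgtcaga
PC-5p-89860_21 precursor: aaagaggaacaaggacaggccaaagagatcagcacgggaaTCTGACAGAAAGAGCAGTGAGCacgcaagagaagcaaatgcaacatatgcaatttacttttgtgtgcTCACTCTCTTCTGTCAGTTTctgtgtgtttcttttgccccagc

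The strands behaved differently in the libraries. The candidate had 1 read in ‘Mix’ and 17.5 in ‘Ant’, and its 20-nt partner PC-3p-591425_4 had 1 and 6.5. The sense strand bra-miR156f-3p_L-1 had 3007 reads in ‘Mix’ and 2223 in ‘Ant’, a log2 ratio of −0.48 (−0.56 to −0.40), and was not called. The other strand of the miR156 precursor, bra-miR156a-5p, had 2958 and 1308. Reads of the minus strand were thus few beside those of the plus strand in both libraries. The candidate was 1 of 4 whose precursor overlapped another precursor of the table. The others were PC-5p-1563717_2 and PC-3p-318264_6, opposite other precursors, and PC-3p-138330_13, on the same strand as one.

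The known miRNAs of 22 nt with a reported role in triggering secondary small RNAs give a scale for these levels. Names of miR393, miR482, miR828, miR1885 and miR2118 stood in the table at 22 nt, as 11 distinct sequences. Of these 5 were called higher in ‘Ant’ and 3 lower, beside 27.1% and 20.9% of all 1220 names. The 5 were all forms of miR393 and miR828, so they are not independent of each other. Among the 11 is also ath-MIR393a-p3, from the opposite arm of miR393, with 1 read in ‘Mix’ and 0 in ‘Ant’. ath-miR393a-5p, which targets auxin receptors, had 550.5 reads in ‘Mix’ and 7686 in ‘Ant’, and ath-miR828, which targets MYB factors, had 2 and 39. bra-miR1885b, which targets disease resistance genes in Brassica, had 109369 and 77995. The 3 sequences called lower, mdm-miR482b, mdm-miR482a-3p and mdm-miR2118a, are named from apple and are among the 5 of the 11 marked as having no match in the genome. These 5 also include ghr-miR393_1ss21CT, called higher, with 13.33 reads in ‘Mix’ and 87.33 in ‘Ant’. The most read candidate, PC-5p-7322_218, thus had more reads than ath-miR828 in both libraries and far fewer than ath-miR393a-5p or bra-miR1885b.

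For the identity of the tissue, ath-miR845a, known from Arabidopsis pollen, had 95 reads in ‘Mix’ and 10546 in ‘Ant’. Among further miR845 names, aly-MIR845a-p5_1ss17GA had 661 reads in ‘Ant’ and ath-MIR845b-p3_2ss16AT18GT had 7, with no read of either listed in ‘Mix’. The part of pollen in the candidates' values was not tested.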

How the data were processed

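Small RNA libraries of ‘Ant’ and ‘Mix’, 1 each, were analysed from the authors' table of expressed miRNAs. The authors kept reads of 18 to 25 nt and mapped them to miRBase 21.0 and to the genome, whose build is not given for this table. The deposited reads are estimated counts, some with fractions. The normalized signal deposited beside them is the reads times 1 factor per library. The authors also deposited the GC percent of each precursor, its folding energy and an energy score.

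For testing, each value was rounded to an integer, over all 1220 names with 1 entry per name. Members and lists were chosen with earlier results of these data known. Named candidates were those called, the 5 most read per library, those sharing a seed, those paired with another candidate, and those related to a known name. Folding used the deposited structures and, beside them, RNAfold 2.7.2. The call was tested on simulated data. Alternatives were each test alone, adjusted p, scalings, read minimums, pseudocounts and edgeR 4.0.16 (R 4.3.3) at assumed variations of 0.2 and 0.4. Computation used scipy 1.17.1, pandas 2.3.3, numpy 2.4.6 and matplotlib 3.10.9 under Python 3.11.15. Other RNA types and the reference gene table were not used here.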

Additional observations from a re-analysis of the deposited data

How the results depend on the processing

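No paired analysis was possible because each group holds 1 library, and no library could be left out. Of 25 called candidates, 4 remained among the 8 with at least 10 reads in both libraries, 16 with a pseudocount of 10 and 15 in edgeR's exact test at an assumed variation of 0.4. Over all names the 586 calls became 273 under the same read minimum and 378 at the variation of 0.4. Of those called at that minimum, 45.1% over all names were higher in ‘Ant’, against 56.5% without it. The other alternatives left 20 to 25 candidates called, all among the 25. PC-3p-152680_12 lost its call under each of 3 other scalings and with a pseudocount of 1 or 10. TMM shifted every ratio by −0.13. The log2 ratio of the summed share was 0.30 without the most read candidate. The 5′ share became 68.4% weighted by reads in ‘Ant’, 61.0% weighted by reads in ‘Mix’ and 62.5% among candidates with at least 10 reads in either library. The cause of these differences was not tested, except that fewer candidates entered the read minimums. Depth limits the 23 candidates with fewer than 10 reads in both libraries.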
